A study of Mus musculus with 12 samples.

Results

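The unfolded protein response regulators described here are 10 mouse genes matched by gene symbol: Ern1, Eif2ak3, Atf6, Xbp1, Atf4, Atf5, Ddit3, Herpud1, Creb3l1 and Creb3l2. They are 10 of the 18050 genes in the deposited table, and all 10 passed the filter on low counts, which 13654 genes passed in all. Left ventricles of wild-type mice were sequenced at day 7 after a sham operation or a myocardial infarction (MI, injury by loss of coronary blood flow), and each group has 6 libraries. Strain, sex and age of the mice are not given in the sources used here, nor whether each library came from a separate animal, so p-values measure only how far these libraries differ from each other, which may be technical. The submitters' processing notes divide the libraries into replicates 1 and 2, for which no tool is named, and replicates 3 to 6, so each comparison is also given within these sets.

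The endoplasmic reticulum (ER) folds secreted and membrane proteins, and the unfolded protein response adjusts gene expression when unfolded protein builds up there. Its sensors are IRE1 (gene Ern1), which splices Xbp1 mRNA into the form that encodes an active transcription factor, PERK (Eif2ak3), which phosphorylates eIF2 and thereby favours translation of Atf4, and ATF6, which is cut in the Golgi to release a transcription factor. CREB3L1 and CREB3L2 are relatives of ATF6 that are released by the same Golgi proteases and are known for inducing collagen and secretory transport genes in matrix-producing cells. Splicing of Xbp1, translation of Atf4 and cleavage of ATF6 or CREB3L1 were not measured: the values below are amounts of mRNA from all spliced forms of a gene together.

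Total expected counts, the RSEM estimates of reads per gene, were 15541334 and 16066681 in sham replicates 1 and 2, 18546662 and 18602226 in MI replicates 1 and 2, 9140353 to 9750764 in sham replicates 3 to 6 and 14168412 to 14410783 in MI replicates 3 to 6. Replicates 3 to 6 lay far closer together, with a biological coefficient of variation of 0.0293 in sham and 0.0208 in MI, against 0.112 and 0.192 for replicates 1 and 2. For this reason a gene is said to have risen or fallen only where edgeR called it in the same direction over 12 libraries and again with replicates 3 to 6 of each group summed to 1 column. MI replicates 3 to 6 held lung epithelium transcripts (summed level of 6 markers 168.3 to 172.5 CPM, counts scaled to a common library size), which reached at most 2.79 CPM in the other libraries. Within replicates 3 to 6 the beta-globin genes Hbb-bs and Hbb-bt made up 99.95% of the beta-globin counts compared in sham and 0.115% in MI, so a difference in mouse strain cannot be told apart from MI in that set. Cardiomyocyte markers were high in the sham libraries, and all 8 fell with MI, from 69900 to 80890 CPM in sham to 20930 to 21250 CPM in MI replicates 3 to 6 and 4292 to 6618 CPM in MI replicates 1 and 2. In bulk tissue such as this, a change in the number of cells of a type and a change in RNA per cell cannot be told apart.

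The promoter window of Herpud1 is shown because it was the member with the deepest fall and the 1 member of 8 in the promoter table that held an ER stress response element. The table, from RefSeq on GRCm38.p6, gives 250 bases before to 50 bases after a transcription start. Motifs were searched on both strands: ERSE (CCAAT and CCACG with any 9 bases between them, in 0.119% of 32851 promoters), ERSE-II (ATTGG and CCACG with any 1 base between them, 0.0365%), the core of the unfolded protein response element UPRE (TGACGTGG, 0.676%), the cAMP response element (TGACGTCA, 1.79%) and a core of the C/EBP-ATF element bound by ATF4 (TGATGNAA, 3.97%). Both ERSE forms contain CCACG, which alone occurs in 32.8% of promoters. Capitals in the Herpud1 line mark first the C/EBP-ATF core, read on the opposite strand, and then ERSE-II. The window lies at chr8:94386297-94386407 on the plus strand, 132 to 22 bases before the start.
Herpud1: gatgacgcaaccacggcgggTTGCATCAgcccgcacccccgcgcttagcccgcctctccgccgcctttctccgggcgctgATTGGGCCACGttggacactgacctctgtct

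For comparison, ERSE or ERSE-II was found in 8 of the 13 ER chaperone genes of a fixed list that the promoter table held. The lines below give ERSE in capitals with 10 bases on each side, read along the gene's own strand, for Hspa5 at chr2:34772015-34772053 (plus strand), Pdia6 at chr12:17266481-17266519 (plus strand), Calr at chr8:84847065-84847103 (minus strand) and Canx at chr11:50325790-50325828 (minus strand). In Calr the element reads on the opposite strand of the gene.
Hspa5: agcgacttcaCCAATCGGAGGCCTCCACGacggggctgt
Pdia6: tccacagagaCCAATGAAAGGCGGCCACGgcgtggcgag
Calr: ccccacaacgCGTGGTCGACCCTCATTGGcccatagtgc
Canx: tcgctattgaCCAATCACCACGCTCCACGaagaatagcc

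Of the 10 regulators, 5 rose with MI (Ern1, Eif2ak3, Xbp1, Creb3l1 and Creb3l2), 2 fell (Atf6 and Herpud1) and 3 were not called by both tests (Atf4, Atf5 and Ddit3). Over all genes tested, both tests called a rise in 28.0% and a fall in 29.7%, or a change in either direction in 57.7%, so 7 of 10 is a share not far above that of all genes. The 12-library test alone called 9 of the 10 (7 up, 2 down), beside 37.9% of all genes up and 38.0% down, 75.9% together. The counted-once test called the same 7 as both tests, beside 28.2% of genes up and 29.5% down. With library size alone as the scaling, both tests called 8 regulators up (Atf4, Atf5 and Ddit3 joined), 1 down (Herpud1) and left Atf6 not called, beside 46.1% of all genes up and 18.2% down, 64.4% together. Creb3l1 and Creb3l2 rose at least 2-fold, as 17.0% of all genes did, and Herpud1 fell at least 2-fold, as 15.2% did. For 6 of the 10 (Eif2ak3, Atf6, Xbp1, Herpud1, Creb3l1 and Creb3l2) the level in every MI library lay on one side of every sham library, which held for 42.6% of all genes (21.2% with MI above, as for 4 regulators, and 21.3% with MI below, as for 2). For these 6 the exact two-sided permutation test over 12 libraries gave p = 0.00216, the smallest that 6 against 6 can give. It gave 0.00433 for Atf4, 0.00649 for Ddit3, 0.353 for Ern1 and 0.591 for Atf5, each taken alone. This permutation test takes no account of set. Ern1 differed strongly in level between the sets, and within each set its MI libraries were above its sham libraries. The median log2 fold change of all genes was 0.01 over 12 libraries. Of all calls over 12 libraries 50% were rises, and with library size alone as the scaling 70.8% were.

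Under TMM scaling the sensors did not move together: mRNA of the kinases Ern1 and Eif2ak3 rose, and that of Atf6 fell. With library size alone Atf6 was not called. Eif2ak3, which encodes PERK (chromosome 6 from 70844484 to 70905241, GRCm38.p6), had 16.2 and 13.6 CPM in sham replicates 1 and 2 against 34.8 and 35.7 in MI replicates 1 and 2. In replicates 3 to 6 it had 12.1, 16.2, 13.9 and 14.0 CPM in sham and 27.2, 22.1, 25.8 and 24.3 in MI. Every MI library was above every sham library. The log2 fold change was 0.97 ± 0.10 (SE, 12 libraries, edgeR adjusted p = 2.60e-06), with an adjusted p of 0.00286 when replicates 3 to 6 were counted once, and it was 1.22 ± 0.15 within replicates 1 and 2 and 0.88 ± 0.08 within replicates 3 to 6. Exons of Eif2ak3 overlap an annotated antisense transcript over 8.05% of their length.

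Ern1, which encodes IRE1 alpha (chromosome 11 from 106397620 to 106487796), was the least abundant regulator per length in all 12 libraries. It had 24.3 and 16.7 CPM in sham replicates 1 and 2 and 30.9 and 34.8 in MI replicates 1 and 2. Replicates 3 to 6 had 2.11, 2.49, 3.59 and 1.45 CPM in sham and 4.90, 4.24, 4.81 and 4.61 in MI. Within each set the MI libraries were above the sham libraries, but the sets lay so far apart (mean in sham 20.5 ± 5.38 CPM, n = 2, and 2.41 ± 0.895 CPM, SD, n = 4) that the groups overlapped across all libraries. Its log2 fold change was 0.82 ± 0.16 over 12 libraries (edgeR adjusted p = 0.000626) and 0.75 with replicates 3 to 6 counted once (adjusted p = 0.0175). The counted-once call was lost without sham replicate 2 (adjusted p = 0.0709) or MI replicate 2 (0.0578), and the 12-library call without the term for set (0.480). In sham replicates 3 to 6 the Ern1 value rests on 12 to 30 expected counts.

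Atf6 (chromosome 1 from 170704457 to 170868585), whose product induces ER chaperones, was at 132 and 120 CPM in sham replicates 1 and 2 against 61.1 and 65.8 CPM in MI replicates 1 and 2. In replicates 3 to 6 the spread was narrow, at 86.0, 82.1, 84.3 and 83.4 CPM in sham and 65.4, 67.7, 67.4 and 68.5 CPM in MI. Its MI libraries were thus all below sham on this scale. On the log2 scale the MI effect was -0.54 ± 0.10 over 12 libraries (edgeR adjusted p = 0.000407) and -0.79 with replicates 3 to 6 counted once (adjusted p = 0.0106). It was -1.01 ± 0.12 within replicates 1 and 2 and -0.27 ± 0.04 within replicates 3 to 6. The fall depended on scaling: with library size alone, which moves the median gene up by 0.41, the log2 fold change was -0.13 (adjusted p = 0.222) over 12 libraries and 0.07 (adjusted p = 0.0645), the opposite sign, within replicates 3 to 6. In the authors' FPKM, Atf6 was 15.2 and 13.7 in sham and 9.32 and 10.4 in MI for replicates 1 and 2, but 9.71 to 10.2 in sham and 10.1 to 10.6 in MI for replicates 3 to 6. The counted-once call was also lost without MI replicate 1 (adjusted p = 0.0689) or MI replicate 2 (0.0606).

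Among the transcription factors downstream of the kinases, Xbp1 rose, and Atf4, Atf5 and Ddit3 were not called by both tests. Xbp1 (chromosome 11 from 5520641 to 5525993) is the target of IRE1 splicing and induces genes of ER-associated degradation and secretion. It had 85.6 and 85.8 CPM in sham replicates 1 and 2 and 148 and 145 in MI replicates 1 and 2. In replicates 3 to 6 it had 88.4, 93.5, 86.5 and 81.1 CPM in sham and 116, 116, 119 and 118 in MI. The sham level was alike in both sets, and all MI libraries were above it. Its log2 fold change was 0.54 ± 0.07 over 12 libraries (edgeR adjusted p = 1.41e-05), 0.76 ± 0.11 within replicates 1 and 2 and 0.47 ± 0.04 within replicates 3 to 6. In the counted-once test the adjusted p was 0.0101, but 0.0638 without sham replicate 1 and 0.0649 without sham replicate 2.

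Atf4 (chromosome 15 from 80255184 to 80257545), the main effector of PERK signalling, was among the 3 most abundant regulators per length in every library. It had 83.7 and 96.8 CPM in sham replicates 1 and 2, 129 and 131 CPM in MI replicates 1 and 2, and 113, 103, 113 and 115 CPM in sham replicates 3 to 6. In MI replicates 3 to 6 it had 118, 115, 121 and 121 CPM, which overlapped with sham of the same set. The fitted log2 change was 0.24 ± 0.08 over 12 libraries (edgeR adjusted p = 0.0147) and 0.37 ± 0.15 with replicates 3 to 6 counted once (adjusted p = 0.0859). In FPKM the groups did not overlap, with 47.2 to 68.9 in sham and 89.6 to 102 in MI.

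Atf5 (chromosome 7 from 44812256 to 44816658) encodes a related factor that is, like ATF4, controlled at translation. It had 103 and 138 CPM in sham replicates 1 and 2, 136 and 156 in MI replicates 1 and 2, 58.5 to 66.4 in sham replicates 3 to 6 and 63.7 to 69.2 in MI replicates 3 to 6. In CPM the groups overlapped in both sets. In FPKM they did not overlap within either set, with 51.1 and 68.2 in sham and 89.9 and 107 in MI for replicates 1 and 2. For replicates 3 to 6 the FPKM was 30.3 to 34.6 in sham and 43.2 to 47.0 in MI. On the log2 scale the difference was 0.14 ± 0.08 over 12 libraries (edgeR adjusted p = 0.133) and 0.19 with replicates 3 to 6 counted once (adjusted p = 0.364). With library size alone it was 0.55 over 12 libraries (adjusted p = 6.77e-05).

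Ddit3, which encodes CHOP, a factor linked to cell death under lasting ER stress (chromosome 10 from 127290793 to 127296291), differed from sham in 1 set. It had 23.5 and 33.7 CPM in sham replicates 1 and 2 and 28.1 and 35.9 in MI replicates 1 and 2, which overlapped. Replicates 3 to 6 had 26.2, 25.9, 27.2 and 29.1 CPM in sham and 62.8, 64.7, 68.2 and 64.9 in MI, with a wide gap between the groups. Its log2 fold change was 0.14 ± 0.22 within replicates 1 and 2 (edgeR adjusted p = 0.580) and 1.31 ± 0.05 within replicates 3 to 6 (adjusted p = 2.20e-21). The difference between the sets passed over 12 libraries (adjusted p = 0.000120) but not with replicates 3 to 6 counted once (adjusted p = 0.115), and the MI effect itself had an adjusted p of 0.000606 and 0.163 in these tests. The 4 libraries with high Ddit3 are those that held lung epithelium transcripts, and the part of these in the result was not tested. They are also the libraries with a low share of Hbb-bs and Hbb-bt counts, so a strain difference cannot be told apart from MI there. Of 7 listed cell death genes downstream of CHOP, the 5 that rose had larger log2 fold changes within replicates 1 and 2, where Ddit3 did not pass, as Casp12 with 1.53 against 0.77. Bcl2, which was not called, went the other way, with 0.03 against 0.97. Mcl1, also not called, had 0.05 against -0.09. The list medians were 1.40 and 0.77, and the difference between sets missed the threshold counted once for all 7 (lowest adjusted p = 0.0751).

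Herpud1 fell in both sets by like amounts. The gene (chromosome 8 from 94386429 to 94395371) encodes an ER membrane protein that takes part in ER-associated degradation and is a known target of ATF6, XBP1 and ATF4. It was the most abundant regulator per length in every sham library, at 313 and 266 CPM in sham replicates 1 and 2 and 271, 250, 258 and 258 CPM in sham replicates 3 to 6. In MI it had 87.2 and 86.9 CPM in replicates 1 and 2 and 66.9, 66.1, 70.5 and 70.3 CPM in replicates 3 to 6. The groups were far apart, with the lowest sham library well above the highest MI library. The fitted log2 change was -1.86 ± 0.06 over 12 libraries (edgeR adjusted p = 2.55e-10), or 0.276 of the sham level, and -1.82 with replicates 3 to 6 counted once (adjusted p = 0.000990). It was -1.75 ± 0.13 within replicates 1 and 2 and -1.87 ± 0.03 within replicates 3 to 6. The summed cardiomyocyte markers fell in the same libraries, as given above, and their part in the result was not tested.

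Creb3l1 had the greatest rise of the 10. Its product, also called OASIS, is known for driving type I collagen expression in bone-forming cells and fibroblasts (chromosome 2 from 91982328 to 92024170). It had 9.67 and 11.3 CPM in sham replicates 1 and 2 and 77.0 and 61.6 in MI replicates 1 and 2. In replicates 3 to 6 it had 4.68, 4.97, 6.57 and 5.43 CPM in sham and 25.8, 27.7, 27.3 and 26.2 in MI. The lowest MI library thus lay above the highest sham library, although the sets differed in level in both groups. On the log2 scale the rise was 2.47 ± 0.11 over 12 libraries (edgeR adjusted p = 2.27e-09), a 5.53-fold rise, and 2.56 ± 0.17 with replicates 3 to 6 counted once (adjusted p = 0.000760). It was 2.70 ± 0.17 within replicates 1 and 2 and 2.35 ± 0.09 within replicates 3 to 6, a difference between sets that did not pass (adjusted p = 0.0614 over 12 libraries and 0.351 counted once).

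Creb3l2 (chromosome 6 from 37327255 to 37442276) encodes the close relative BBF2H7, known for inducing Sec23a in cartilage. It had 23.8 and 20.5 CPM in sham replicates 1 and 2 and 61.2 and 56.5 in MI replicates 1 and 2, then 31.5, 28.5, 29.6 and 30.3 in sham replicates 3 to 6 and 86.6, 90.9, 89.7 and 86.3 in MI replicates 3 to 6. Every MI library was above every sham library. Its log2 fold change was 1.51 ± 0.06 over 12 libraries (edgeR adjusted p = 6.08e-10), a 2.85-fold rise, and 1.44 with replicates 3 to 6 counted once (adjusted p = 0.00100). Within the sets it was 1.39 ± 0.13 and 1.61 ± 0.05. In CPM its level was higher in replicates 3 to 6 than in replicates 1 and 2 in both groups, but in FPKM it was lower there, with 3.61 to 4.07 in sham and 14.4 to 15.2 in MI against 6.11 and 5.22, and 20.8 and 19.9.

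Fibroblast and macrophage markers were higher in the same MI libraries. The 6 fibroblast markers summed to 1646 to 1838 CPM in sham and 23180 to 30560 CPM in MI for replicates 1 and 2, and to 2449 to 2578 and 7686 to 7811 CPM for replicates 3 to 6, and 4 of the 6 rose. Col1a1 carried most of this sum: without it the other 5 summed to 1089 to 1139 CPM in sham and 2921 to 3216 in MI for replicates 1 and 2, and to 2350 to 2476 and 3400 to 3483 for replicates 3 to 6. Of 5 activated fibroblast markers 4 rose, and their sum went from 564.9 to 594.6 CPM in sham to 4667 to 5598 in MI for replicates 1 and 2 and from 220.4 to 227.2 to 5292 to 5432 for replicates 3 to 6. All 6 macrophage markers rose, from 589.3 to 1013 CPM over the sham libraries to 3328 to 5482 CPM over the MI libraries. The summed plasma cell and B cell markers were low, at 3.58 to 5.04 CPM in sham and 5.13 to 13.2 CPM in MI for replicates 1 and 2, and 6.52 to 7.34 and 3.998 to 6.60 CPM for replicates 3 to 6. The part of these cell types in the rise of Creb3l1, Creb3l2, Xbp1 and Eif2ak3 was not tested.

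**Figure D1:**
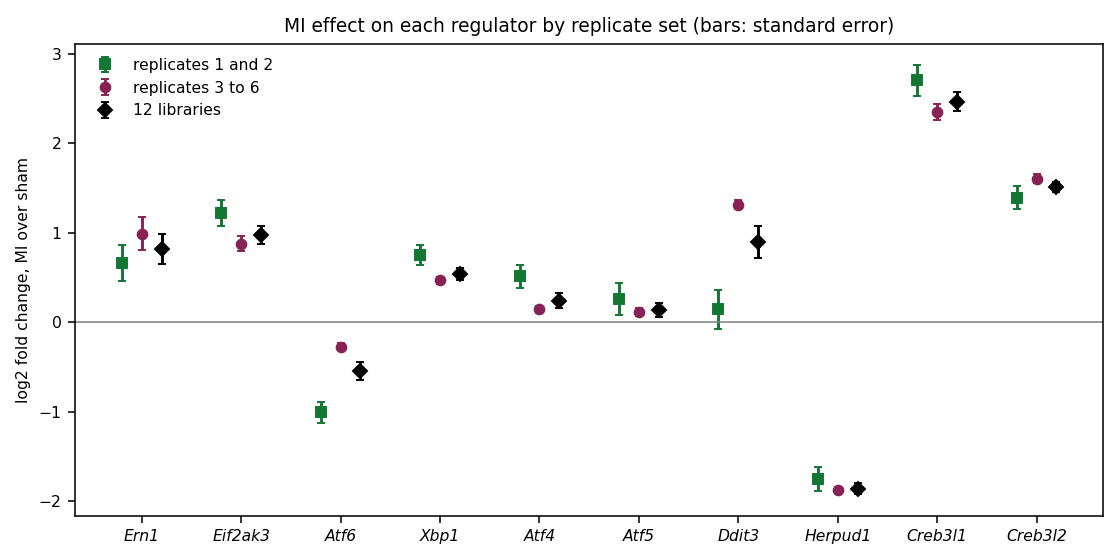
The log2 fold change of MI over sham for each regulator within replicates 1 and 2 (squares), within replicates 3 to 6 (circles) and over 12 libraries (diamonds), with bars of 1 standard error. Creb3l1 lies highest and Herpud1 lowest in both sets, Ddit3 is near 0 in replicates 1 and 2 and above 1 in replicates 3 to 6, and Atf6 is below 0 in both sets under the TMM scaling plotted, although within replicates 3 to 6 it is 0.07 when scaled by library size alone.

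Within the sets taken alone, edgeR called 8 regulators in replicates 1 and 2, where 6 rose and 2 fell and Atf5 and Ddit3 did not pass. The background there was 34.1% of genes with a rise and 32.9% with a fall, 67.1% together. In replicates 3 to 6 all 10 were called, 8 up and 2 down, beside 42.3% and 39.6% of all genes, 81.9% together. Some of these within-set calls rest on single libraries. In replicates 1 and 2 the Ern1 call was lost without sham replicate 2 (adjusted p = 0.135) or MI replicate 2 (0.0598), and that of Atf4 without sham replicate 1 (0.131). In replicates 3 to 6 the Atf5 call was lost without sham replicate 5 (0.0754), sham replicate 6 (0.114) or MI replicate 3 (0.0808). The size of the MI effect differed between the sets for 5 of 10 regulators over 12 libraries (Eif2ak3, Atf6, Xbp1, Atf4 and Ddit3), and for 0 in the counted-once edgeR test, where the lowest adjusted p was 0.0982, for Atf6, and where 2 (Atf6 and Ddit3) had an unadjusted p under 0.05. Over 12 libraries 55.0% of all genes were called for this difference, and 10.5% by both tests.

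The arms of the response were compared with Creb3l1 by the ratio of expected counts within a library, which does not depend on scaling between libraries. In sham there were 5.44 to 9.44 counts of Creb3l1 per 100 of Atf6, and in MI 126 and 93.7 in replicates 1 and 2 and 38.2 to 40.9 in replicates 3 to 6. Against Xbp1 the sham libraries had 5.30 to 13.2 counts of Creb3l1 per 100 and the MI libraries 52.1 and 42.4 in replicates 1 and 2 and 22.3 to 24.0 in replicates 3 to 6. Against Atf4 they had 4.15 to 11.7 per 100 in sham and 59.5 and 46.9, then 21.6 to 24.1, in MI. For all 3 ratios every MI library was above every sham library, so Creb3l1 gained on each arm. The 3 ratios share the counts of Creb3l1, whose CPM alone separated the groups (lowest MI 25.8, highest sham 11.3). They are therefore not 3 separate results. How many other genes would give the same in place of Atf6, Xbp1 or Atf4 was not counted.

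The log2 ratio of Creb3l1 to Atf6 was higher in MI by 2.99 (SD 0.283 in sham and 0.762 in MI, n = 6 each), 3.71 within replicates 1 and 2 and 2.64 within replicates 3 to 6. That to Atf4 was higher by 2.21 (2.18 and 2.22 within the sets), and that to Xbp1 by 1.91 (1.94 and 1.89 within the sets). The exact two-sided permutation test gave p = 0.00216 for each, also after adjustment over the 3 ratios, which is the smallest p that 6 against 6 libraries can give. With replicates 3 to 6 counted once the differences were 3.35, 2.19 and 1.92 and the exact permutation p was 0.1, the smallest that 3 against 3 can give. The gap between Creb3l1 and Xbp1 or Atf4 was thus of like size in both sets, and that between Creb3l1 and Atf6 was greater in replicates 1 and 2, a difference that was not tested for the ratio itself.

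Compared per length, in FPKM, the order of the regulators changed with MI mainly at the top and through Creb3l1. In sham, Herpud1 was first in all 6 libraries, at 115 to 142 FPKM, followed by Atf5 and Atf4 in replicates 1 and 2 and by Atf4 and Xbp1 in replicates 3 to 6. In MI replicates 3 to 6 the order was Atf4 (89.6 to 95.1 FPKM), Ddit3 (84.0 to 91.6), Xbp1 (60.2 to 62.2), Atf5 (43.2 to 47.0) and Herpud1 (39.7 to 42.3). The ranges of Atf4 and Ddit3 overlapped, and the next neighbours did not. In MI replicates 1 and 2 Atf4 (98.1 and 102 FPKM) and Atf5 (89.9 and 107) overlapped at the top, ahead of Xbp1 (74.7 and 76.3), Herpud1 (52.9 and 55.1) and Ddit3 (32.7 and 46.8). Creb3l1 moved from place 8 or 9 in sham (1.84 to 4.25 FPKM) to place 5 to 7 in MI (38.5 and 32.0 in replicates 1 and 2, 13.3 to 14.3 in replicates 3 to 6). Atf6 held place 6 in sham and place 8 or 9 in MI, so that per length Creb3l1 was below Atf6 in every sham library and above it in every MI library. Creb3l2 went from 3.61 to 6.11 FPKM in sham to 14.4 to 20.8 in MI, and Eif2ak3 from 2.53 to 3.79 to 5.95 to 9.59.

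The genes that these factors are known to control were described through 10 lists. Their counts are read against the 28.0% of all genes that rose and 29.7% that fell by both tests, and, with library size alone, 46.1% and 18.2%. Of 16 ER chaperones and folding enzymes, 13 rose and 3 were not called, with a median log2 fold change of 0.93 beside 0.01 for all genes. Pdia4, a disulfide isomerase, had 35.5 ± 2.31 CPM in sham and 121 ± 7.88 in MI for replicates 1 and 2 (SD, n = 2 each), and 38.3 ± 1.73 and 104 ± 1.67 for replicates 3 to 6 (n = 4 each), a log2 fold change of 1.55 ± 0.07. P4hb, the disulfide isomerase that is also a subunit of collagen prolyl hydroxylase, rose by 1.33 ± 0.06, and Ppib, a prolyl isomerase that acts on collagen, by 1.37 ± 0.08. Hspa5, which encodes BiP, the chaperone that holds the sensors inactive, was not called under TMM scaling. Its log2 fold change was 0.21 ± 0.08 (edgeR adjusted p = 0.0263 over 12 libraries and 0.266 counted once). With library size alone it was 0.62 and both edgeR tests called it (adjusted p = 1.57e-05 over 12 libraries and 0.0206 counted once). Of the 8 chaperone genes with ERSE or ERSE-II in the promoter window, 6 rose (Calr, Hsp90b1, Pdia6, Dnajc3, Creld2 and Dnajb11, by 0.51 to 1.12). Hspa5 and Canx (-0.13 ± 0.06) did not, while Herpud1 with ERSE-II fell. Of the whole chaperone list 81.2% rose, so 6 of 8 is not a higher share. Whether the motif bears on the rise was not tested.

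Of 19 tested genes of ER-associated degradation 7 rose, 5 fell and 7 were not called, with a median of 0.33. These shares of 36.8% and 26.3% are near those of all genes. With library size alone 13 rose and 1 fell. Edem1, which takes misfolded glycoproteins to degradation, rose by 1.93 ± 0.10, from 19.3 to 94.5 CPM in replicates 1 and 2 and from 19.3 to 64.9 CPM in replicates 3 to 6 (means). Os9, a lectin of the same step, rose by 1.00 ± 0.07 and the reductase Dnajc10 by 0.77 ± 0.05. Vcp, the ATPase that extracts proteins from the ER membrane, fell with a log2 fold change of -0.62 ± 0.12, and with library size alone this was -0.21 (adjusted p = 0.0916). Herpud1 lay below all 19 of these genes, whose lowest log2 fold change was -0.71.

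Of 24 tested ATF4 targets 13 rose, 2 fell and 9 were not called, with a median of 0.90, although Atf4 itself was not called. Among them were genes of proline and serine synthesis: Pycr1 rose by 3.50 ± 0.13, from 3.01 to 35.4 CPM in replicates 1 and 2 and from 2.17 to 24.0 CPM in replicates 3 to 6, Aldh18a1 by 1.81 ± 0.06 and Phgdh by 2.30 ± 0.14. Of the other listed genes around serine, Psat1 rose by 0.98 ± 0.12, Psph was not called (-0.20 ± 0.09) and Shmt2 fell (-0.45 ± 0.09). Cebpb, which encodes a partner of ATF4, had a log2 fold change of -0.63 ± 0.19 over 12 libraries and was not called (adjusted p = 0.515 counted once). Its sign differed between the sets, at 0.19 within replicates 1 and 2 and -1.02 within replicates 3 to 6, a difference that passed both edgeR tests (adjusted p = 4.59e-06 and 0.0355 counted once). Counted once with library size alone it was 0.21. Slc7a1, Slc1a5 and Ddit4 also differed in sign between the sets and passed both tests of that difference. Vldlr and Nupr1 passed them too, with the same sign in both sets, and 10.5% of all genes did. Exons of Cebpb overlap an antisense gene over 20.74% of their length. Of 12 tested genes for cytosolic tRNA synthetases and the tRNA exporter Xpot, also ATF4 targets, 1 rose (Cars, 0.55 ± 0.07) and 11 were not called, with a median of 0.17. Under scaling by library size alone 4 of these 12 rose. The list of eIF2 kinases, phosphatase subunits, eIF2 and eIF2B had 3 rises, 4 falls and 6 genes not called of 13. Eif2ak4, the kinase GCN2, rose by 0.62 ± 0.07 and Ppp1r15b, a subunit of the eIF2 phosphatase, by 0.73 ± 0.06, while Eif2b4, a subunit of the eIF2B exchange factor, fell with a log2 fold change of -1.15 ± 0.16.

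Other members of the ATF6 and CREB3 families, the Golgi proteases that cut them and NF-Y, the CCAAT-binding partner of ATF6, rose in 7 of 9 cases, and 1 fell. Creb3l3, known from liver, had the largest log2 fold change (3.70 ± 0.23) but remained low, at 0.375 ± 0.0992 CPM in sham and 5.29 ± 0.416 CPM in MI for replicates 1 and 2 and 0.180 ± 0.119 and 2.30 ± 0.297 CPM for replicates 3 to 6. Creb3 rose by 0.71 ± 0.06, and Nfyc, an NF-Y subunit, fell with a value of -0.77 ± 0.08. Exons of Creb3 overlap antisense genes over 20.78% of their length.

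Among 7 tested IRE1 partners 2 rose (Bak1, 1.00 ± 0.13, and Bax, 0.63 ± 0.07, both pore-forming cell death proteins), 2 fell and 3 were not called, with a median of 0.15. At 28.6% in each direction the list was near the share of all genes. Map3k5, the kinase ASK1 that links IRE1 to JNK, was 1 of those that fell, at -0.86 ± 0.08, and Tmbim6, an ER-resident inhibitor of cell death, was not called at 0.15 ± 0.05. With library size alone 5 of the 7 rose and 1 fell. Of 7 cell death genes downstream of CHOP 5 rose and 2 were not called, with a median of 0.80. Pmaip1, which encodes the BH3-only protein NOXA, rose by 2.55 ± 0.23, the receptor gene Tnfrsf10b by 1.11 ± 0.17 and Casp12, an ER-associated caspase, by 0.98 ± 0.12. The prosurvival gene Mcl1 was not called at -0.07 ± 0.06, which was 0.34 with library size alone.

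All 4 listed targets of CREB3L1 and CREB3L2 rose. Col1a1 and Col1a2, which encode the chains of type I collagen, rose by 5.37 ± 0.16 and 4.76 ± 0.14 on the log2 scale. Col1a1 had 628 ± 100.2 CPM in sham and 23800 ± 5010 in MI for replicates 1 and 2 (SD), and 99.7 ± 1.47 and 4327 ± 89.4 for replicates 3 to 6, and it is also counted among the fibroblast markers. The coat subunits of secretory vesicles Sec24d and Sec23a rose by 0.93 ± 0.06 and 0.48 ± 0.07. Genes of the separate mitochondrial unfolded protein response went the other way: of 11 tested 9 fell and 2 were not called, with a median of -1.46, and of -2.02 and -0.94 within the sets. In the same libraries all 8 cardiomyocyte markers fell, with a median of -2.30, and of -3.94 and -1.55 within the sets, and their part in this result was not tested. Hspd1, the mitochondrial chaperonin, and Clpp, a matrix protease, had log2 fold changes of -1.50 ± 0.12 and -1.50 ± 0.08, Hspe1 -0.95 ± 0.06, and Yme1l1 was not called at -0.02 ± 0.06. Scaled by library size alone, 8 of the 11 fell and 2 rose. The counts of the other lists under that scaling differed by at most 2 genes in either direction. Since strand is not stated, reads of overlapping genes cannot be told apart: exons of Ppib, Bak1 and Ppp1r15b overlap antisense genes over 24.96%, 25.51% and 11.44% of their length, and those of Bax a gene on the same strand over 12.18%. Among the regulators, exons of Ddit3 (4.73%) and Atf5 (4.11%) overlap antisense genes, and those of the others but Eif2ak3 overlap none.

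Within replicates 1 and 2, whose libraries held almost no lung transcripts, the list medians were 1.23 for ER chaperones, 0.28 for ER-associated degradation, 1.00 for ATF4 targets and 2.81 for CREB3L1 and CREB3L2 targets, beside 0.07 for all genes. Within replicates 3 to 6 they were 0.86, 0.40, 1.07 and 2.90, beside 0.03. The list of CREB3L1 and CREB3L2 targets holds only 4 genes, from 0.48 to 5.37 over 12 libraries. Its median is a midpoint between the coat subunits and the collagens. The tRNA synthetase list had opposite signs in the sets, with medians of -0.30 and 0.43, a difference that was not tested for the list.

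**Figure D2:**
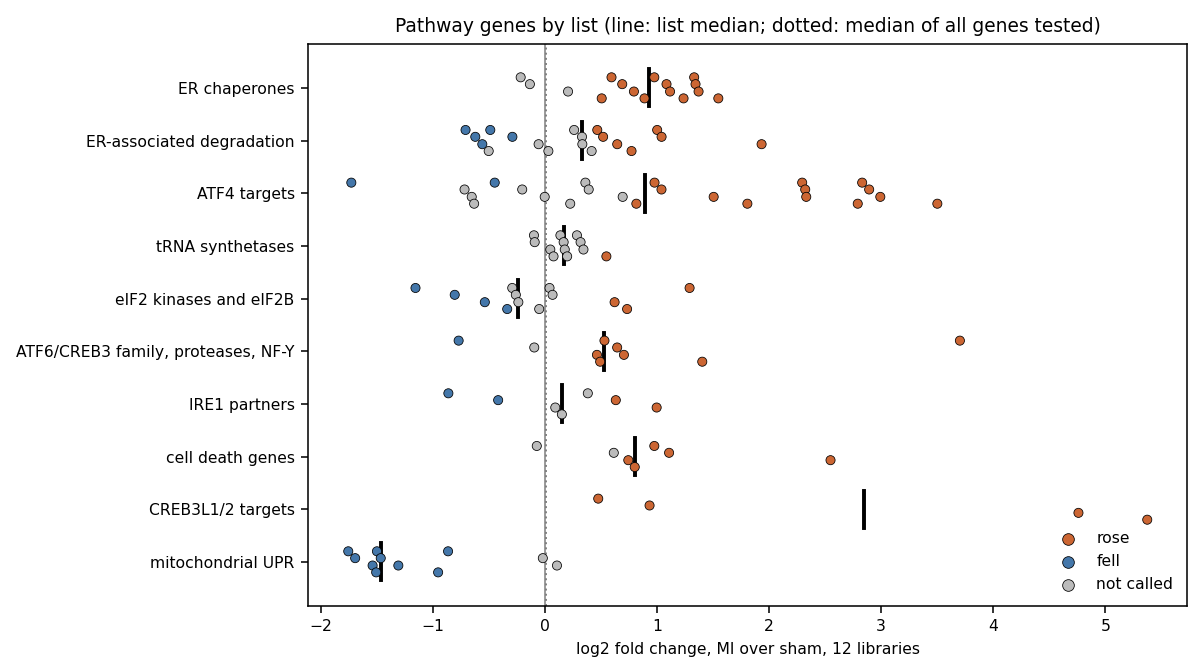
The log2 fold change of MI over sham over 12 libraries for every tested gene of 10 lists (points, coloured by whether both tests called a rise or a fall), with a bar at each list's median and a dotted line at the median of all genes. Under the TMM scaling plotted, the list medians lie above 0 except those of the eIF2 list (-0.24) and the mitochondrial list (-1.46).

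Likeness to a regulator was measured as Pearson's r of log2 CPM over the 12 libraries, among 9914 tested genes with a mean of at least 10 CPM. The 5 genes most like Creb3l1 were Slc16a3 (r = 0.998), Rrbp1 (0.997), Col16a1 (0.996), Pmepa1 (0.995) and Rpn1 (0.995). Slc16a3 encodes a lactate exporter, Rrbp1 a ribosome-binding protein of the ER, Col16a1 a collagen chain, Pmepa1 a TGF-beta-induced membrane protein and Rpn1 a subunit of the oligosaccharyltransferase. They rose by 3.31, 1.35, 3.60, 2.52 and 0.67 on the log2 scale. The 3 genes most like Atf4 were H2-Ab1 (r = 0.963), Tmem50a (0.960) and Kidins220 (0.955). These values describe 12 libraries that share their group, their set and their depth.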

How the data were processed

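Left ventricular RNA was sequenced in 6 sham and 6 MI libraries of day 7. Per the labels' protocols, mRNA was taken from Magzol total RNA with oligo(dT), and strandedness is not stated. Per the submitters' processing notes, reads were set against GRCm38, and Bowtie2, RSEM and DESeq2 are named for replicates 3 to 6, without versions. The authors deposited expected counts (unscaled, per gene), TPM (per length, scaled to a common total) and FPKM (per length and per fragment total) for 18050 genes. A second table of FPKM, deposited for replicates 1 and 2 alone, holds 17723 genes. TPM entered no test.

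The members and gene lists were chosen with earlier results of these data known. After rounding, expected counts entered edgeR 4.0.16 in R 4.3.3 (quasi-likelihood F test, TMM, filterByExpr with a minimum count of 10, set as covariate). Benjamini-Hochberg adjustment ran over all genes tested, with a threshold of 0.05. A second fit summed replicates 3 to 6 per group, and "rose" and "fell" mean a call by both. The tests were also run within each set and with the interaction of set and group. Only the first fit and the second fit, for the MI effect, were tried on simulated data. The outcome is not given here, so no result rests on it. Left out were 425 genes blank in replicates 1 and 2, Mars and Ero1a among the listed genes. A standard error is the log2 fold change divided by the root of its F statistic. Alternatives used DESeq2 1.42.0 and limma 3.58.1. Pathway lists hold 127 entries. Beside the 10 regulators, each list gave the 3 called genes with the smallest adjusted p and its most abundant exception, 36 genes in all, and the genes most like Creb3l1 (5) and Atf4 (3) were added. Canx, Sec23a, and the chaperones named for their promoter motif were chosen after their values were seen. So were Bcl2, Psat1, Psph and Shmt2, and the ATF4 targets named beside Cebpb for a difference between the sets. Precision is limited by depth, at 9140353 to 18602226 expected counts per library.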

Additional observations from a re-analysis of the deposited data

Results flagged for a closer look

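Herpud1 in sham replicate 1, at 313 CPM, stood apart from the other 5 sham libraries, which lay between 250 and 271 CPM. The gap to the nearest library was 0.676 of the range of the group, above the critical value of 0.625 for 6 samples. It was the 1 flag among 40 groups of libraries tested over the 10 regulators, where replicates 3 to 6 were tested alone and again among all 6. The critical value, at which chance flags about 1 in 20 groups, holds for libraries of 1 spread. Sham replicates 1 and 2 varied more (biological coefficient of variation 0.112) than sham replicates 3 to 6 (0.0293). Sham replicate 1 lay on the side away from MI, and the fall of Herpud1 was called within replicates 3 to 6, which do not hold it.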

How the results depend on the processing

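With library size alone, 7779 genes rose and 3208 fell over 12 libraries (5180 and 5186 with TMM), 6430 and 2534 with replicates 3 to 6 counted once (3934 and 4126), and 3535 fell within replicates 3 to 6 (5397). On FPKM, limma called 3280 falls with a pseudocount of 1 and 3266 with 0.1. Atf6 within replicates 3 to 6 turned to 0.0744 under library size. Atf4, Atf5 and Ddit3, not called with TMM, had adjusted p of 0.00663, 0.0201 and 0.0258 in the counted-once test under library size. Ddit3 within replicates 1 and 2, which did not pass, had 0.14 and ranged from -0.11 without sham replicate 1 to 0.41 without sham replicate 2, with -0.04 without MI replicate 2. Leaving out 1 of replicates 1 and 2 gave 2301 to 3072 rises in the counted-once test, with 2301 without sham replicate 1 and 2523 without sham replicate 2, where an arm left with fewer columns is assumed to vary like the rest. The difference between sets was called for 7503 genes over 12 libraries and 1451 counted once. The Creb3l1 ratios counted once were 3.35 to Atf6, 1.92 to Xbp1 and 2.19 to Atf4, with p = 0.1, the smallest this exact permutation test can give. Leaving out each library gave 2.76 to 3.10, 1.74 to 2.06 and 2.01 to 2.38. Same-numbered libraries did not deviate together from the means of their set and group (correlations -0.0552 to 0.0609). Replicates 1 and 2 share 1 value, since 2 libraries deviate equally from their mean. These correlations show no pairing by number but cannot exclude it. With the replicate block in place of set 4750 genes rose and 4749 fell, and the edgeR adjusted p of Atf4 was 0.0539. Calls of Eif2ak3, Herpud1, Creb3l1 and Creb3l2 held in every alternative run. The cause of these changes was not tested.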

Other observations

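The second deposited table gives other FPKM values for 2 regulators in replicates 1 and 2, in the same order of groups. Creb3l2 is 7.61 and 7.44 in sham and 31.5 and 29.2 in MI there, against 6.11 and 5.22 in sham and 20.8 and 19.9 in MI in the table of 12 libraries. Ern1 is 2.61 and 1.5 in sham and 3.5 and 4.05 in MI, against 3.05 and 2.09, and 5.17 and 5.95. For the other 8 regulators the tables differ less, as for Creb3l1, with 3.58 and 4.2 in sham and 37.5 and 31.2 in MI against 3.65 and 4.25, and 38.5 and 32.0.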
